A study of Sus scrofa with 5 samples.

Results

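Proliferating T cells of the neonatal pig cecum are described here. They were chosen by their transcripts: a barcode with at least 200 detected genes was counted as a proliferating T cell when it held at least 2 unique molecular identifiers (UMIs, each standing for 1 captured transcript) of the T cell receptor subunits CD3E and CD3G together, at least 2 of the proliferation genes MKI67 and TOP2A together, none of the epithelial gene EPCAM and at most 1 of the B cell genes MS4A1 and CD79B together. The rule found 2740 cells among 72701 in 5 droplet libraries of cecal mucosa, from male Large White piglets at birth (d0) and at 1 (d1), 7 (d7), 14 (d14) and 21 (d21) days of age. The piglets came from 3 sows and took only maternal milk, without antibiotics, immunization or additives. Each age was 1 library in which cells of 5 piglets had been mixed after release of the mucosal cells with EDTA, so that piglets cannot be told apart within an age and no difference between ages can be tested. The libraries held 83604711, 80196009, 48592431, 91928553 and 69583669 UMIs at d0, d1, d7, d14 and d21.

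A T cell that has met its antigen, or a cytokine of the IL-2, IL-7 or IL-15 family, leaves quiescence, grows, copies its DNA in S phase and divides in mitosis. MKI67 codes for the Ki-67 protein that coats mitotic chromosomes and TOP2A for the topoisomerase that untangles replicated DNA, and transcripts of both peak late in the cycle. In the gut of a young animal, T cells settle in the epithelium and the lamina propria after birth, while microbes and milk antigens arrive, and local division is one of the ways in which such a population can grow.

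Proliferating T cells were nearly absent at birth and numerous from d7. The rule found 5 cells at d0 and 6 at d1, against 428 at d7, 887 at d14 and 1414 at d21. T cells as a whole, chosen by the same CD3E, CD3G, EPCAM and B cell limits without MKI67 and TOP2A, numbered 324, 200, 2692, 5481 and 6931 at the 5 ages. Proliferating cells were 1.54% of the T cells at d0 (95% exact binomial interval 0.503 to 3.56%), 3.00% at d1 (1.11 to 6.42%), 15.9% at d7 (14.5 to 17.3%), 16.2% at d14 (15.2 to 17.2%) and 20.4% at d21 (19.5 to 21.4%). The d7 and d14 intervals overlapped, and the d21 interval lay above both. These intervals cover counting error only, not the spread between piglets. B cells chosen by at least 2 UMIs of MS4A1 and CD79B, without CD3E, CD3G and EPCAM, held a proliferating share of 5.88% at d0 (2 of 34 cells), 4.48% at d1 (3 of 67), 15.5% at d7, 14.9% at d14 and 13.6% at d21, with an interval at d21 (7.25 to 22.6%) that contained the T cell share. Epithelial cells, chosen by at least 2 UMIs of EPCAM and none of the T and B cell genes, held a proliferating share of 0.571, 3.16, 18.9, 27.3 and 21.7% at the 5 ages, so their share was also higher from d7 on. Of all cells with at least 2 UMIs of MKI67 and TOP2A, the chosen T cells were 6.94% at d0, 1.30% at d1, 45.7% at d7, 57.9% at d14 and 64.2% at d21. T cells were 2.13% of the kept cells at d0, 1.41% at d1, 26.2% at d7, 33.9% at d14 and 41.0% at d21. The kept cells of d0 held a median of 35.7% mitochondrial counts, against 8.39, 7.35, 4.89 and 7.06% at the later ages, and the part of this in the shares of d0 was not tested.

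**Figure D1:**
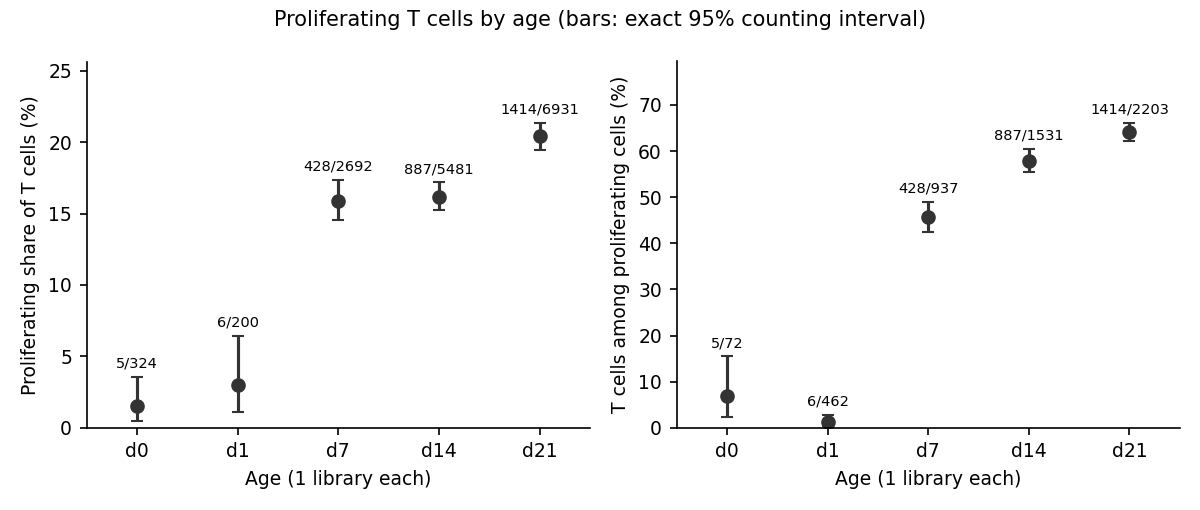
Left, proliferating cells as a percentage of T cells; right, T cells as a percentage of all cells with at least 2 UMIs of MKI67 and TOP2A, by age, with 1 library an age, the counts above the points and exact 95% binomial intervals as bars. The left share sits at 3.00% or below at d0 and d1 and at 15.9% or above from d7, and the right share climbs from 45.7% at d7 to 64.2% at d21.

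The share depends on how many UMIs a cell holds, because a shallow cell is less likely to show 2 UMIs of a pair of genes. Proliferating T cells held a median of 8151.5 UMIs at d7, 9718 at d14 and 8428 at d21, and T cells without a UMI of MKI67 and TOP2A, called resting T cells here, held 3890, 3856 and 3494. All kept barcodes with at least 1000 UMIs were also thinned to 1000 UMIs, and the whole rule was then applied again. Its CD3E and CD3G limit now passed fewer cells, 1163 T cells at d7, 2752 at d14 and 3371 at d21. Of these, 4.39% were proliferating at d7, 4.36% at d14 and 5.61% at d21. The intervals were 3.28 to 5.73, 3.63 to 5.19 and 4.85 to 6.44%, so the level fell and the d21 interval overlapped those of d7 and d14. Part of the change lies in which T cells were counted, and its size was not tested. At that depth d0 held 0.559% (1 of 179 cells, 0.0141 to 3.07%) and d1 held 0% (0 of 90, 0 to 4.02%). The d0 interval lay below those of d7, d14 and d21. The d1 interval lay below that of d21 and overlapped those of d7 and d14, so d1 was not separated from them at this depth. The 5 and 6 cells of d0 and d1 are too few for levels, and only d7, d14 and d21 enter the comparisons below. They did hold the markers described next: the 5 cells of d0 held 25 UMIs of UBE2C and 7 of PCLAF, and the 6 cells of d1 held 11 and 27. No barcode of a proliferating T cell was shared between libraries.

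The label was checked with genes that the rule did not use. PCLAF codes for a factor bound to PCNA at the replication fork and UBE2C for the ubiquitin-conjugating enzyme of the anaphase-promoting complex. PCLAF stood at 7.59, 8.08 and 7.50 UMIs per 10000 in proliferating T cells at d7, d14 and d21 and at 0.582, 0.633 and 0.889 in resting T cells. UBE2C stood at 5.57, 6.15 and 5.13 against 0.0770, 0.0815 and 0.148. The levels of the 2 populations did not overlap for either gene. On the reference Sscrofa11.1, RefSeq places MKI67 on chromosome 14 from 137266622 to 137296312, TOP2A on chromosome 12 from 22001300 to 22028452, CD3E on chromosome 9 from 45619730 to 45633972, PCLAF on chromosome 1 from 107659509 to 107669477 and UBE2C on chromosome 17 from 48018403 to 48021542.

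T cell genes outside the rule were present too. The kinase LCK, which starts signalling from the receptor, stood at 2.43, 3.1 and 2.31 UMIs per 10000 in proliferating T cells and at 2.53, 3.18 and 2.32 in resting ones, and the receptor chain CD247 at 3.22, 2.98 and 4.03 against 3.52, 3.15 and 4.21. In proliferating B cells at d7 and d14 LCK stood at 0.411 and 0.100. CD3D, a further subunit of the receptor, was nearly silent in the counts of both T cell populations, at 0.136, 0.0786 and 0.145 in proliferating T cells and 0.172, 0.0894 and 0.142 in resting ones, so it did not serve as a marker. The constant genes of the gamma delta receptor, TRDC, TRGC1 and TRGC2, were not analysed here, and the chosen cells may hold both alpha beta and gamma delta T cells.

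Just outside the threshold the markers were already mixed. Among T cells with exactly 1 UMI of MKI67 and TOP2A, PCLAF was detected in 43.0% at d7, 44.4% at d14 and 38.1% at d21. With exactly 2 UMIs, the lowest count inside the rule, it was detected in 72.7%, 78.2% and 70.9%, and with 10 or more in 89.9%, 93.5% and 95.2%. Among resting T cells it was detected in 8.86%, 9.23% and 14.5%. UBE2C went from 15.8%, 17.1% and 16.4% of the cells with 1 UMI to 37.9%, 34.7% and 40.6% of those with 2. Median depth rose over the same steps, at d21 from 4710 UMIs in cells with 1 to 11161 in cells with 10 or more.

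The whole division programme was present in these cells. This is a description and not a test, since MKI67 and TOP2A belong to the programme and chose the cells. Levels in proliferating and resting T cells were compared within each library over d7, d14 and d21, and over all 12005 genes with enough counts 23.4% were called higher and 26% lower in proliferating T cells at an adjusted p under 0.05 (edgeR). Of 43 genes of a list of S phase genes, 41 were among the higher ones, with a median log2 fold change of 1.28, and of 52 measured genes of a G2 and mitosis list all 52, with a median of 3.95. The median over all genes was -0.08. Over all genes 47.3% of the calls were higher ones, and without TMM scaling factors 35.2%. PCNA, the sliding clamp of DNA polymerase, stood at 3.59, 3.62 and 2.92 UMIs per 10000 in proliferating T cells and at 1.02, 1.05 and 1.26 in resting T cells at d7, d14 and d21. RRM2, which makes deoxyribonucleotides, stood at 2.78, 2.85 and 2.98 against 0.521, 0.445 and 0.849. CDC20, which activates the anaphase-promoting complex, stood at 1.43, 1.63 and 1.41 against 0.0528, 0.0800 and 0.0947. HMGB2, a chromatin protein, stood at 33.2, 30.9 and 31.9 against 3.83, 4.17 and 5.83.

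The 10 largest rises that pointed the same way in all 3 libraries were UBE2C (log2 fold change 5.85), the cyclins CCNB3 (5.74), CCNB2 (5.33) and CCNF (5.19), the centromere chaperone HJURP (5.40), DEPDC1B (5.21), the mitotic kinase AURKB (5.19), LOC100158117 (5.16), the spindle gene ASPM (5.11) and the transcription factor FOXM1 (5.11), which drives late cell cycle genes. All the named genes among them belong to the same programme. HJURP varied between libraries, with log2 ratios of 6.53 at d14 and 4.25 at d21 and no UMI in resting T cells at d7. Without d21 its fitted value was 7.15, against 6.32 for UBE2C. FOXM1 stood at 0.309, 0.251 and 0.260 UMIs per 10000 in proliferating T cells and at 0.00211, 0.00543 and 0.0138 in resting T cells.

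The licensing genes and the mitotic regulators followed. Each of the 22 genes of a list on replication licensing and the fork was called higher in proliferating T cells, with a median of 1.73, and each of the 24 measured mitotic regulators, with a median of 4.47. DUT, which keeps uracil out of DNA, stood at 12.7, 11.8 and 10.5 against 2.20, 2.20 and 2.50 at d7, d14 and d21. Among cell cycle inhibitors, CDKN2C and CDKN2D, which code for p18 and p19 and block the cyclin D kinases, were higher in dividing cells and not lower. CDKN2C stood at 0.740, 1.02 and 0.717 UMIs per 10000 against 0.158, 0.242 and 0.218 in resting T cells (log2 fold change 2.07 ± 0.10 SE, adjusted p = 2.2e-09 with edgeR). CDKN2D stood at 0.890, 0.774 and 0.780 against 0.267, 0.222 and 0.205 (1.93 ± 0.08, adjusted p = 2.46e-10). Both were higher in 3 of 3 libraries.

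**Figure D2:**
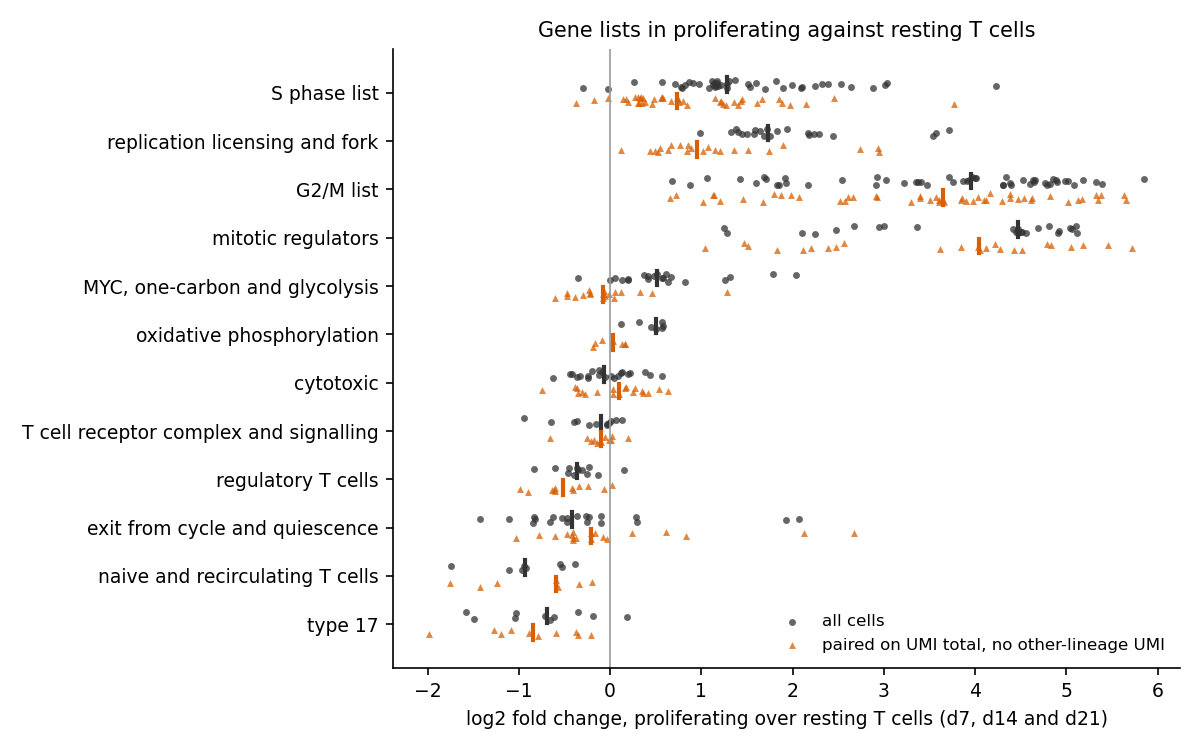
Log2 fold change of proliferating over resting T cells for the genes of 12 lists, one symbol a gene, with all cells (black circles) and with cells paired on their UMI total and free of UMIs of other lineages (orange triangles), and list medians as bars. The lists of the cell cycle lie to the right in both, the growth and respiration lists lie to the right of 0 with all cells and near 0 with paired cells, and the naive and type 17 lists lie to the left in both.

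The balance of S phase against G2 and mitosis transcripts was described for each cell. In each cell thinned to 2000 UMIs, the UMIs of the G2 and mitosis list, without MKI67 and TOP2A, were counted as a percentage of those of both cycle lists. The median was 76.0% at d7 (420 cells), 76.3% at d14 (870 cells) and 79.2% at d21 (1379 cells), and the middle 50% of cells ran from 57.8 to 91.0%, from 60.0 to 90.9% and from 62.5 to 90.6%. Few cells lay under 33%, with 1.43% at d7, 1.95% at d14 and 0.943% at d21. The 3 libraries thus had closely similar spreads, which was not tested. Choosing cells by MKI67 and TOP2A favours late cells, and the lists differ in abundance: over all UMIs of both lists together the G2 and mitosis genes took 76.4, 76.8 and 77.6% in proliferating and 56.5, 59.8 and 62.1% in resting T cells at d7, d14 and d21. The percentage therefore orders cells within these libraries and does not measure the share of cells in a phase or its length.

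Ordered by that percentage and divided into 3 groups of near equal size within each library, the cells passed from S phase to mitosis genes, which the ordering itself uses. PCNA fell from 5.96 to 3.72 and 0.934 UMIs per 10000 at d7, from 6.19 to 3.44 and 1.13 at d14 and from 4.86 to 2.77 and 1.07 at d21. UBE2C went the other way, from 1.77 to 4.93 and 10.4 at d7 and from 1.66 to 5.00 and 8.99 at d21. GZMB, the granule protease granzyme B of killer cells, which the ordering does not use, kept to its library's level instead: 2.82, 3.48 and 3.64 at d7, 13.2, 13.7 and 12.1 at d14 and 9.95, 7.86 and 8.71 at d21. CDKN2D rose along the order, from 0.50 to 1.03 and 1.17 UMIs per 10000 at d7, from 0.46 to 0.71 and 1.17 at d14 and from 0.50 to 0.90 and 0.94 at d21. CDKN2C, given here for d7 only, stood at 0.72, 0.75 and 0.75.

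**Figure D3:**
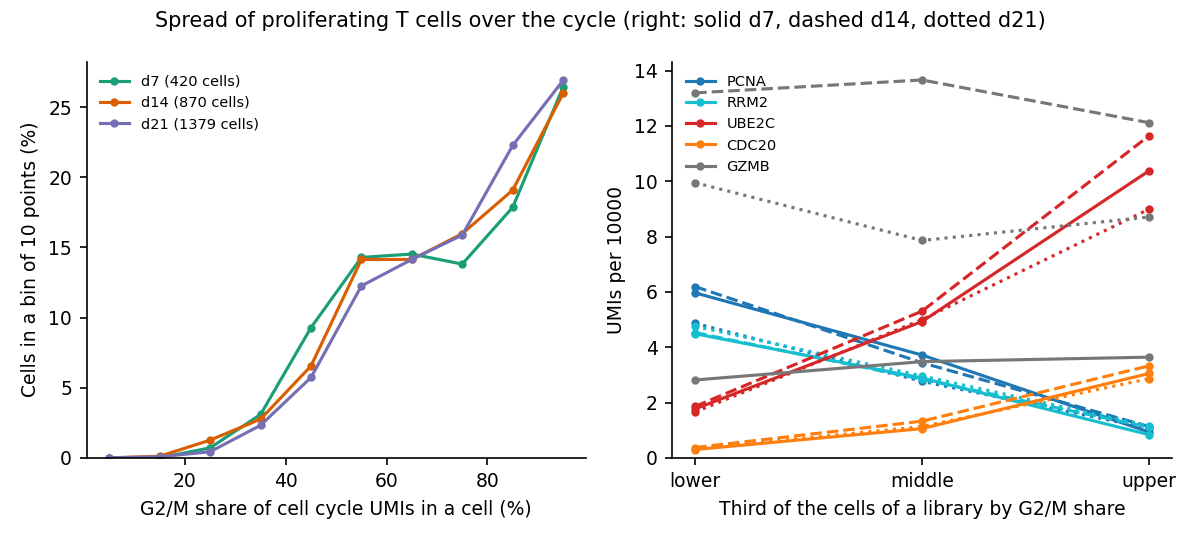
Left, percentage of proliferating T cells in bins of 10 points of the G2 and mitosis share of cell cycle UMIs, by library; right, levels in UMIs per 10000 of 5 genes in 3 groups of cells ordered by that share, with a line for each library. Most cells lie above 50%, on a scale on which the summed UMIs of resting T cells lie between 56.5 and 62.1%, PCNA and RRM2 fall and UBE2C and CDC20 rise along the order, and GZMB differs between libraries more than along it.

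For genes outside the cycle 2 features of the cells matter, and both are given as values before the results. Proliferating T cells held more UMIs than resting ones (medians above), and most genes of other lineages were lower in them: the 6 fibroblast genes, the 8 measured epithelial genes, 8 of 11 myeloid genes and all 5 pericyte and smooth muscle genes were called lower, with median log2 fold changes of -0.92, -0.90, -1.03 and -1.09. Of 5 dendritic cell genes 2 were higher and none lower, and of 5 plasma cell genes 1 was lower. The summed level of the fibroblast list was 0.24, 6.0 and 1.18 UMIs per 10000 in proliferating and 0.63, 10.1 and 3.01 in resting T cells at d7, d14 and d21, with COL3A1 as its leading gene in every case. A gene that falls by such an amount therefore cannot be told apart from this general fall by its value alone. The comparison was repeated with cells free of any UMI of 10 genes of other lineages and paired 1 to 1 on a UMI total within 5%, which left 207, 208 and 421 pairs at d7, d14 and d21, with medians of 7026, 6968.5 and 6574 UMIs in proliferating and 7007, 6962.5 and 6574 in resting T cells. In that setting 867 genes (10.4%) were called higher and 696 (8.36%) lower of 8326. Of 4605 genes called with all cells and still tested, 1272 were called again, 1221 of them in the same direction. Of the cycle lists, 30 of 43 S phase genes (median 0.73) and 18 of 22 licensing genes (0.95) were called higher in that setting. All 51 measured G2 and mitosis genes (3.65) and all 24 mitotic regulators (4.04) were called higher as well. The value from this setting is named as paired below. Cells were also paired on the UMI total alone, with cells holding UMIs of other lineages kept, where 12.8% of 11269 genes were called higher and 16.9% lower. There the fall was larger for fibroblast, myeloid and muscle genes, with medians of -1.87, -2.10 and -1.99, and smaller for epithelial genes, of which 1 of 8 was lower (median -0.38). Values from this setting are given for many of the results below. Counts of called genes in a list are to be read beside the shares over all genes in the same setting. With all cells these were 23.4% higher and 26% lower.

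Genes of naive and recirculating T cells were lower in proliferating T cells, all 8 of the list, with a median of -0.93. IL7R, the receptor of the survival cytokine IL-7 (chromosome 16 from 21300141 to 21330156), stood at 0.490, 0.332 and 0.265 UMIs per 10000 in proliferating T cells and at 1.98, 1.29 and 0.790 in resting ones. It was lower in 3 of 3 libraries, 3.35-fold over all (log2 fold change -1.74 ± 0.08 SE, adjusted p = 2.17e-09 with edgeR), and -1.75 with paired cells. CCR7, which guides cells to lymph nodes, stood at 0.392, 0.117 and 0.0751 against 1.07, 0.194 and 0.137 (-0.95 ± 0.12, adjusted p = 3.1e-05; -1.43 paired). LEF1, a transcription factor of naive cells, stood at 0.390, 0.123 and 0.0895 against 0.987, 0.251 and 0.135 (-0.92, adjusted p = 3.08e-05; -0.60 paired), and with pairing on the UMI total alone it was not called (-0.35, adjusted p = 0.0768 with edgeR). BACH2, which restrains effector differentiation, gave -0.96 and -1.24 paired. With paired cells 5 of the 7 genes that could be measured were called lower and none higher, and with pairing on the UMI total alone 5 of 8.

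The same contrast can be read as the share of cells that divide. Here cells were chosen on their full counts and IL7R was read after each cell was thinned to 1000 UMIs, which left out 1, 0 and 5 proliferating and 87, 126 and 256 resting T cells at d7, d14 and d21. Of T cells with an IL7R UMI, 6.73% were proliferating at d7, 6.31% at d14 and 9.41% at d21, against 16.4%, 16.6% and 21.2% of all T cells. The intervals for the cells with IL7R (4.21 to 10.1%, 4.33 to 8.84% and 6.72 to 12.7%) lay below the shares of all T cells in all 3 libraries. Of T cells with a UMI of LEF1 or CCR7, 7.56% were proliferating at d7 (5.00 to 10.9%), 8.82% at d14 (5.31 to 13.6%) and 16.6% at d21 (11.01 to 23.5%), and the d21 interval contained the share of all T cells. IL7R was detected in none of 53 and 44 proliferating epithelial cells at d7 and d14, which allows up to 6.72 and 8.04% of such cells to show a UMI at this depth (95% exact interval) and does not limit the share that expresses the gene, and in 0.806% of 124 at d21, at the same 1000 UMIs. Without thinning, IL7R was detected in 17.1%, 16.5% and 11.8% of proliferating and 29.0%, 23.0% and 14.0% of resting T cells.

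Genes that hold T cells in quiescence were mostly lower. Of 20 genes of that list 14 were called lower and 4 higher, the latter including CDKN2C and CDKN2D. TXNIP, which limits glucose uptake, stood at 0.347, 0.857 and 0.516 UMIs per 10000 against 1.07, 1.93 and 1.01 in resting T cells (log2 fold change -1.11 ± 0.09, adjusted p = 4.08e-07 with edgeR; -0.78 paired). PIK3IP1, an inhibitor of PI3 kinase, stood at 0.088, 0.0645 and 0.0812 against 0.375, 0.186 and 0.183 (-1.43, adjusted p = 2.96e-06; -1.03 paired). BTG1, an antiproliferative gene, stood at 3.02, 3.11 and 3.52 against 6.07, 6.10 and 6.44 (-0.85 ± 0.06, adjusted p = 6.49e-08; -0.60 paired). KLF2, which keeps naive cells in circulation, gave -0.66 and -0.47 paired. With paired cells 7 of 19 were lower and 4 higher, and with pairing on the UMI total alone 8 of 20 and 4.

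Type 17 genes were lower in proliferating T cells, 8 of 10, with a median of -0.69, 7 of 10 with paired cells and 5 of 10 with pairing on the UMI total alone. These are the cytokines and regulators of T cells that guard the mucosal barrier. IL17A stood at 0.219, 0.363 and 0.127 UMIs per 10000 against 1.39, 0.940 and 0.235 in resting T cells at d7, d14 and d21 (log2 fold change -1.49 ± 0.20, adjusted p = 4.26e-05 with edgeR; -1.98 paired). IL17F stood at 0.195, 0.284 and 0.0493 against 0.705, 0.845 and 0.160 (-1.58 ± 0.09, adjusted p = 1.33e-08; -1.09 paired). IL22 gave -1.05 and -1.20 paired, and with pairing on the UMI total alone -0.29, which was not called (adjusted p = 0.372 with edgeR). In no library was IL17A or IL17F higher in the proliferating cells. Read at 1000 UMIs, 16.0% of T cells with IL17A, IL17F or IL22 were proliferating at d7 (9.22 to 24.95%), 13.9% at d14 (10.4 to 18.0%) and 11.06% at d21 (7.14 to 16.1%), and the share of all T cells lay above the interval at d21 and inside it at d7 and d14.

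Single cytotoxic genes went in both directions. With all cells 4 of the 22 genes of the list were called higher, 6 lower and 12 neither, shares near or below those over all genes. With paired cells 4 of 19 were higher and 5 lower, beside 10.4% and 8.36% of all genes. With pairing on the UMI total alone 9 of 22 were higher and 2 lower, beside 12.8% and 16.9% of all genes. The balance of the list thus depended on the cells compared. GZMB (chromosome 7 from 74705499 to 74708781) stood at 3.30, 13.0 and 8.82 UMIs per 10000 in proliferating T cells and at 2.75, 7.56 and 6.98 in resting ones, higher in 3 of 3 libraries (log2 fold change 0.57 ± 0.08 SE, 1.48-fold, adjusted p = 7.85e-05 with edgeR; 0.54 paired, adjusted p = 0.000203). GZMA, granzyme A, stood at 0.262, 0.630 and 1.29 against 0.256, 0.491 and 0.933 (0.43, adjusted p = 0.000606 with edgeR; 0.41 paired; 0.35, adjusted p = 0.0559, without d21). CCL5, a chemokine stored by killer cells and the leading gene of the list, went the other way, at 66.7, 81.8 and 139 against 93.8, 120 and 199 (-0.42 ± 0.05, adjusted p = 7.43e-06; -0.35 paired), but was not called with pairing on the UMI total alone (-0.11, adjusted p = 0.448 with edgeR). TYROBP, a signalling adaptor of innate receptors, was lower too (-0.62; -0.75 paired), but was not called without the 5% of cells of highest UMI total (-0.20, adjusted p = 0.0689 with edgeR). For 4 genes of this list the direction turned with paired cells: GZMH from -0.24 to 0.63, GNLY from -0.33 to 0.17, PRF1 from -0.24 to 0.10 and KLRD1 from 0.39 to -0.28. CD8A stood at 1.02, 1.57 and 1.62 against 1.08, 1.39 and 1.66 and was not called with all cells (adjusted p = 0.139 with edgeR), but was with paired cells (0.35, adjusted p = 0.0118).

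Read in the same way at 1000 UMIs, GZMB was detected in 15% of proliferating T cells at d7, 30.4% at d14 and 25.8% at d21, against 11.7%, 20.9% and 19.9% of resting T cells and none of 53, none of 44 and 0.806% of 124 proliferating epithelial cells. Without thinning the shares were 30.4%, 50.5% and 49.2% of proliferating and 18.0%, 31.6% and 32.2% of resting T cells. Of the T cells with GZMB, 20.3% were proliferating at d7 (16.0 to 25.1%), 22.4% at d14 (20.1 to 24.9%) and 25.4% at d21 (23.2 to 27.8%), against 16.4%, 16.6% and 21.2% of all T cells. The intervals lay above the share of all T cells at d14 and d21, and at d7 the lower bound of 16.0% lay just under it. GZMB was very uneven among cells: without thinning, 448 of 887 proliferating T cells at d14 held it, 219 held 10 or more UMIs and 1 held 562.

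No helper or regulatory gene was called higher, and the calls of lower ones depended on the cells compared. CD4, the coreceptor of helper cells, stood at 0.219, 0.354 and 0.0812 UMIs per 10000 against 0.404, 0.506 and 0.198 in resting T cells (log2 fold change -0.73 ± 0.12, adjusted p = 0.000359 with edgeR; -0.64 paired). Of the 10 helper genes 7 were called lower with all cells, 2 of 7 with paired cells and none of 10 with pairing on the UMI total alone. The shares called lower over all genes were 26%, 8.36% and 16.9% in these settings. With pairing on the UMI total alone CD4 was at -0.26 (adjusted p = 0.242 with edgeR). Of T cells with CD4 and without CD8B at 1000 UMIs, 8.79% were proliferating at d7 (3.87 to 16.6%), 10.2% at d14 (6.85 to 14.5%) and 13.6% at d21 (8.37 to 20.4%), and of those with CD8B and without CD4, 22.4% (11.8 to 36.6%), 17.2% (12.6 to 22.7%) and 23.7% (18.7 to 29.3%). The intervals of the 2 classes overlapped at each age, and those of CD8B contained the shares of all T cells. Those of CD4 lay below the shares of all T cells at d14 and d21 (16.6 and 21.2%) and contained that of d7 (16.4%). These classes are small, with 91, 264 and 140 cells of CD4 and 49, 232 and 266 of CD8B, and most T cells showed none of CD4, CD8A and CD8B at this depth. Of 12 regulatory T cell genes 6 were lower with all cells, 7 with paired cells and 2 with pairing on the UMI total alone. The last count lay near the 16.9% over all genes in that setting, and the others lay above the 26% and 8.36% of theirs. IL10, an inhibitory cytokine, stood at 0.264, 0.864 and 0.276 against 0.652, 1.27 and 0.617 (-0.84; -0.63 paired), and LAG3, an inhibitory receptor, at 0.878, 1.38 and 0.423 against 1.18, 2.60 and 0.683 (-0.60; -0.61 paired). With pairing on the UMI total alone neither was called (-0.54 for IL10, adjusted p = 0.0561, and -0.14 for LAG3, adjusted p = 0.32, with edgeR). FOXP3, the regulatory master gene, stood at 0.128, 0.114 and 0.0311 against 0.142, 0.173 and 0.0444 and was not called with all cells (-0.35, adjusted p = 0.058 with edgeR) or with paired cells (0.02), but was with pairing on the UMI total alone (-0.66, adjusted p = 0.037). FOXP3 was also called lower without TMM factors (-0.45, adjusted p = 0.0201 with edgeR) and without the filter on low counts (-0.37, adjusted p = 0.0316). The same held without d7 (-0.47, adjusted p = 0.0308) and without the 5% of cells of highest UMI total (-0.41, adjusted p = 0.0465).

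Among the other lists, the shares called lower with all cells are to be read beside the 26% of all genes. CD27, a costimulatory receptor that is lost late in T cell differentiation, stood at 0.188, 0.120 and 0.106 UMIs per 10000 against 0.371, 0.260 and 0.216 (log2 fold change -0.95, adjusted p = 6.04e-06 with edgeR; -0.66 paired). It was 1 of 4 genes called lower among the 12 measured genes of the T cell receptor complex and its signalling, none of which was called higher, and with paired cells it was the only one of 12 called, beside 8.36% of all genes. BLK, a kinase found in B cells and in some gamma delta T cells, gave -1.15 and -1.51 paired. Of the 5 measured genes of the gamma delta list, to which BLK belongs, 4 were lower with all cells. With paired cells 2 of 3 were lower and with pairing on the UMI total alone 3 of 5, and none was higher in any of these settings. Of 10 receptors of growth cytokines 6 were lower, IL7R with the largest change and IL2RA, the high-affinity IL-2 receptor chain, with -0.40 (-0.61 paired), and 5 of 10 were lower with paired cells. With pairing on the UMI total alone 1 of the 10 was lower, and IL2RA was not called (-0.34, adjusted p = 0.24 with edgeR), nor was it without d7 (-0.25) or d14 (-0.32). Of 14 homing and retention genes 8 were lower with all cells and 1, CXCR6, with paired cells (-0.52 and -0.61), and none with pairing on the UMI total alone, where CXCR6 was at -0.09 and 1 gene was higher. CXCR6 was not called without d14 either (-0.31). Of 11 activation and exhaustion genes 2 were higher and 4 lower with all cells, and of 10 with paired cells none and 3. None of 3 measured thymocyte genes was called with all cells, and with pairing on the UMI total alone 1 was higher and 1 lower.

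Growth genes rose with all cells, and most of that rise was not found with paired cells. Of 21 measured genes of the MYC, one-carbon and glycolysis list 16 were called higher and 1 lower with all cells, with paired cells 2 of 19 were higher and 4 lower, and with pairing on the UMI total alone 5 of 21 and 1. Among the genes of this list named here, PHGDH, SHMT1 and MTHFD1 rose most with all cells. PHGDH, which makes serine, stood at 0.190, 0.124 and 0.116 UMIs per 10000 against 0.0485, 0.0286 and 0.0340 in resting T cells (log2 fold change 2.04 ± 0.16, 4.11-fold, adjusted p = 2.57e-07 with edgeR; 1.29 paired, adjusted p = 0.00737). MTHFD1, of the folate cycle, stood at 0.737, 0.729 and 0.643 against 0.330, 0.289 and 0.320 (1.26 ± 0.08, adjusted p = 6e-08; 0.46 paired, adjusted p = 0.044). SHMT1, which passes the carbon of serine to folate, gave 1.78 (adjusted p = 0.000435) and had too few counts with paired cells. GAPDH, of glycolysis, stood at 20.3, 25.2 and 17.2 against 14.6, 17.6 and 12.6 (0.58, adjusted p = 1.08e-06), but at -0.08 with paired cells. NME1, NPM1 and ENO1 turned from 0.61, 0.48 and 0.42 to -0.39, -0.29 and -0.23. MYC itself was lower in both settings (-0.35 and -0.61 paired), and was not called without d7 (-0.19). Of 7 measured genes of oxidative phosphorylation 6 were higher with all cells, none with paired cells and 3 with pairing on the UMI total alone.

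**Figure D4:**
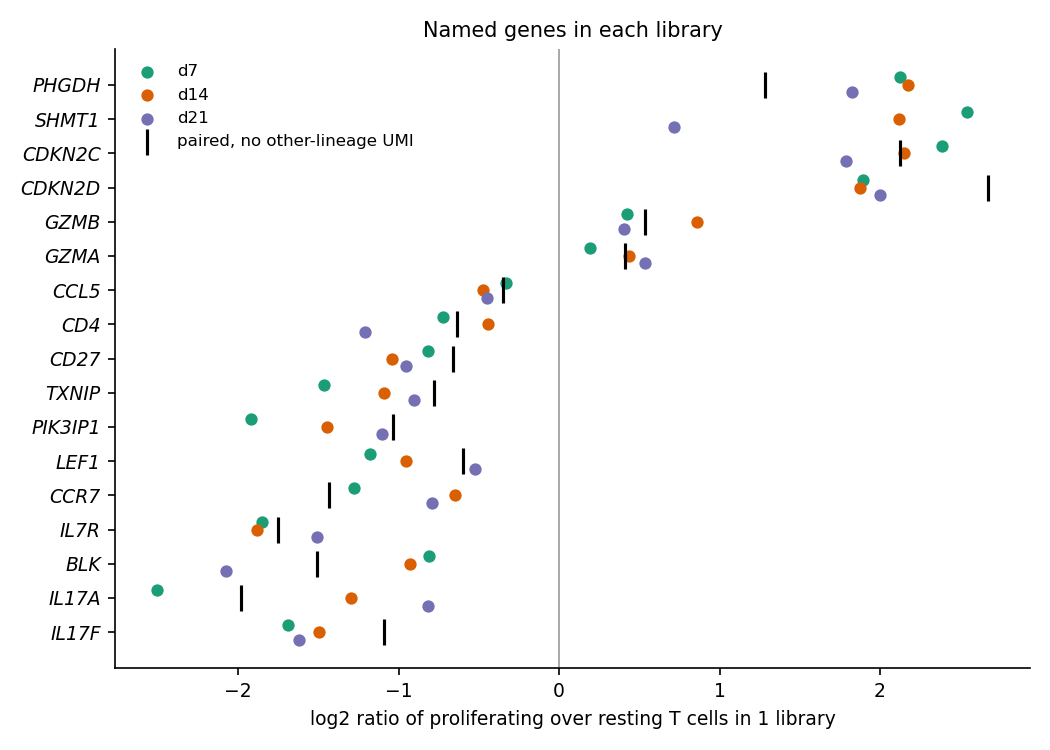
Log2 ratio of the level in proliferating over that in resting T cells for 17 genes in each of 3 libraries (coloured points), with the fitted value for paired cells without UMIs of other lineages as a black tick, which SHMT1 lacks. For each gene the 3 libraries lie on the same side of 0, with CDKN2C, CDKN2D and PHGDH at the right and IL7R, IL17A and IL17F at the left.

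The largest falls were a mixture. NPY, a neuropeptide, had the largest (log2 fold change -5.79, adjusted p = 1.02e-05 with edgeR), followed by the acute phase gene SAA3 (-2.82), TMEM150A (-2.49), the cytokine IL13 (-2.28, with -6.73, -1.95 and -0.80 at d7, d14 and d21), the potassium channel KCNQ1 (-2.21), haemoglobin beta HBB (-2.13), the muscle filament DES (-2.06), ZNF783 (-1.98), HAND2 (-1.95), a transcription factor of gut mesenchyme, and TCP11L2 (-1.94). HBB marks red cells and DES muscle, whose list was lower as given above, and the part of such RNA in the falls was not tested. The log2 ratios of HBB were -0.88, -1.87 and -4.86 at d7, d14 and d21, with 1 UMI in the proliferating cells of d14, and with pairing on the UMI total alone HBB was not called (-1.84, adjusted p = 0.166 with edgeR). With paired cells only TCP11L2 could still be measured, at -1.90.

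Against proliferating B cells few genes were called, both in the cycle lists and over all genes. The 109 B cells at d7 and 55 at d14 were compared with the 428 and 887 T cells within each library. Over 9822 genes 4.56% were called higher and 4.1% lower in T cells, and genes that follow from the choice of cells, such as those of the T cell receptor and of B cell identity, are not taken up here. None of 52 G2 and mitosis genes and none of 24 mitotic regulators was called, with medians of 0.03 and 0.06. Since both populations were chosen by MKI67 and TOP2A, genes of the same programme, this is a description. Of 43 S phase genes 2 were lower in T cells and none higher, and of 22 licensing genes 1 was lower. Both counts of lower genes lay near the 4.1% over all genes, so they set neither list apart. EXO1, an exonuclease of mismatch repair, stood at 0.247 and 0.270 UMIs per 10000 in T cells and at 1.15 and 0.701 in B cells (log2 fold change -1.98 ± 0.34, adjusted p = 0.000696 with edgeR). CDCA7, a target of E2F and MYC, stood at 0.233 and 0.205 against 0.778 and 0.358 (-1.47 ± 0.36, adjusted p = 0.0125), and DUT at 12.7 and 11.8 against 26.3 and 11.9 (-0.71, adjusted p = 0.0488), with near equal levels at d14. With DESeq2 the calls of CDCA7 and DUT were lost (adjusted p = 0.2 and 0.523), and that of DUT also without TMM factors and without the filter on low counts (adjusted p = 0.656 and 0.14 with edgeR). UBE2C, at 5.57 and 6.15 against 5.51 and 4.25, was not called (0.10 ± 0.24, adjusted p = 0.924). Counts of this comparison were also simulated, with the same spread for every gene and no difference between libraries. Of these, 8 of 100 genes with 2-fold and 71 of 100 with 4-fold changes were called. Many differences of 2-fold between T and B cells could thus be missed, though the real spread differs between genes.

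Of the growth, quiescence and respiration lists, 3 genes differed from proliferating B cells. ENO1, of glycolysis, was higher in T cells, at 8.41 and 11.7 UMIs per 10000 against 4.76 and 4.22 (log2 fold change 0.97 ± 0.23, adjusted p = 0.0114 with edgeR), the only one of 21 growth genes, beside 4.56% of all genes. Its call was lost with DESeq2 (adjusted p = 0.0986) and without TMM factors (adjusted p = 0.0876 with edgeR). PHGDH stood at 0.190 and 0.124 against 0.149 and 0.172 and was not called (adjusted p = 0.924). KLF6 and ZFP36L2, of the quiescence list, were higher in T cells (1.91 and 1.61, adjusted p = 0.000948 and 0.00149). None of 7 genes of oxidative phosphorylation was called.

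Between d7 and d21 no gene of the S phase, G2 and mitosis, licensing and mitotic lists moved by 2-fold in proliferating T cells, and some cytotoxic, regulatory and naive genes did. Genes with at least 50 UMIs in d7 or d21 were compared by fold only, as 1 library stands for each age. Of 9174 such genes 3.37% were at least 2-fold higher and 1.67% at least 2-fold lower at d21 than at d7. None of the 43 S phase, 52 G2 and mitosis, 22 licensing and 24 mitotic genes was among them, MKI67 and TOP2A left out. Since the cells of every age were chosen by these 2 genes of the same programme, this is a description. In resting T cells the G2 and mitosis list and the mitotic regulators were higher at d21, with median log2 ratios of 0.69 and 0.89. In proliferating T cells these medians were -0.02 and -0.17. For the S phase and licensing lists the medians were 0.02 and -0.05 in resting and -0.13 and -0.26 in proliferating T cells. Of 19 genes of the exit and quiescence list 3 were at least 2-fold higher, the inhibitor CDKN1A, TOB1 and ZFP36L2 (log2 ratios of 1.21, 1.07 and 1.03), and none lower. Of 20 cytotoxic genes 6 were higher and 1 lower, with a median log2 ratio of 0.52 beside -0.04 over all genes. CCL5 went from 66.7 to 81.8 and 139 UMIs per 10000 at d7, d14 and d21, and GZMA from 0.262 to 0.630 and 1.29. KLRD1, the CD94 receptor of killer cells, went from 0.0737 to 0.195 and 0.587. GZMB stood at 3.30, 13.0 and 8.82 and was thus highest at d14. GNLY, the pore former granulysin, fell from 10.8 and 13.2 to 4.64.

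Some regulatory and naive genes were lower at d21. Of 11 regulatory genes 5 and of 7 naive genes 3 were at least 2-fold lower at d21 and none was higher. TNFRSF4, the costimulatory receptor OX40, stood at 1.35, 1.93 and 0.262 UMIs per 10000, and PDCD1, which codes for PD-1 and belongs to the activation list, at 0.388, 0.467 and 0.0797. IL2RA stood at 0.702, 0.526 and 0.316. CCR7 stood at 0.392, 0.117 and 0.0751 and LEF1 at 0.390, 0.123 and 0.0895. Of 10 type 17 genes 4 were lower and 1 higher. NR4A2, an early gene of receptor signalling, went up from 1.5 and 1.06 to 3.54, and ITGAE, the integrin chain that holds T cells in the epithelium, from 1.14 and 1.02 to 1.96, which is under 2-fold.

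Resting T cells of the same libraries moved in the same directions for the genes given next, which lie outside the cycle lists. The log2 ratio of d21 over d7 for CCL5 was 1.06 (counting interval 1.04 to 1.07) in proliferating and 1.08 (1.07 to 1.09) in resting T cells, and for GZMB 1.42 (1.34 to 1.5) and 1.35 (1.29 to 1.41). For TNFRSF4 it was -2.37 (-2.56 to -2.17) and -1.95 (-2.07 to -1.83). For PDCD1 it was -2.28 (-2.65 to -1.92) and -1.18 (-1.40 to -0.957), and for IL2RA -1.15 (-1.37 to -0.929) and -1.86 (-1.99 to -1.72). These intervals did not overlap, but they treat each UMI as independent and leave out the spread between cells, so the difference in size was not tested. IL17A fell less in proliferating (-0.79, -1.16 to -0.405) than in resting T cells (-2.57, -2.72 to -2.42). With 1 library an age, age, piglets and library cannot be told apart in any of these values.

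**Figure D5:**
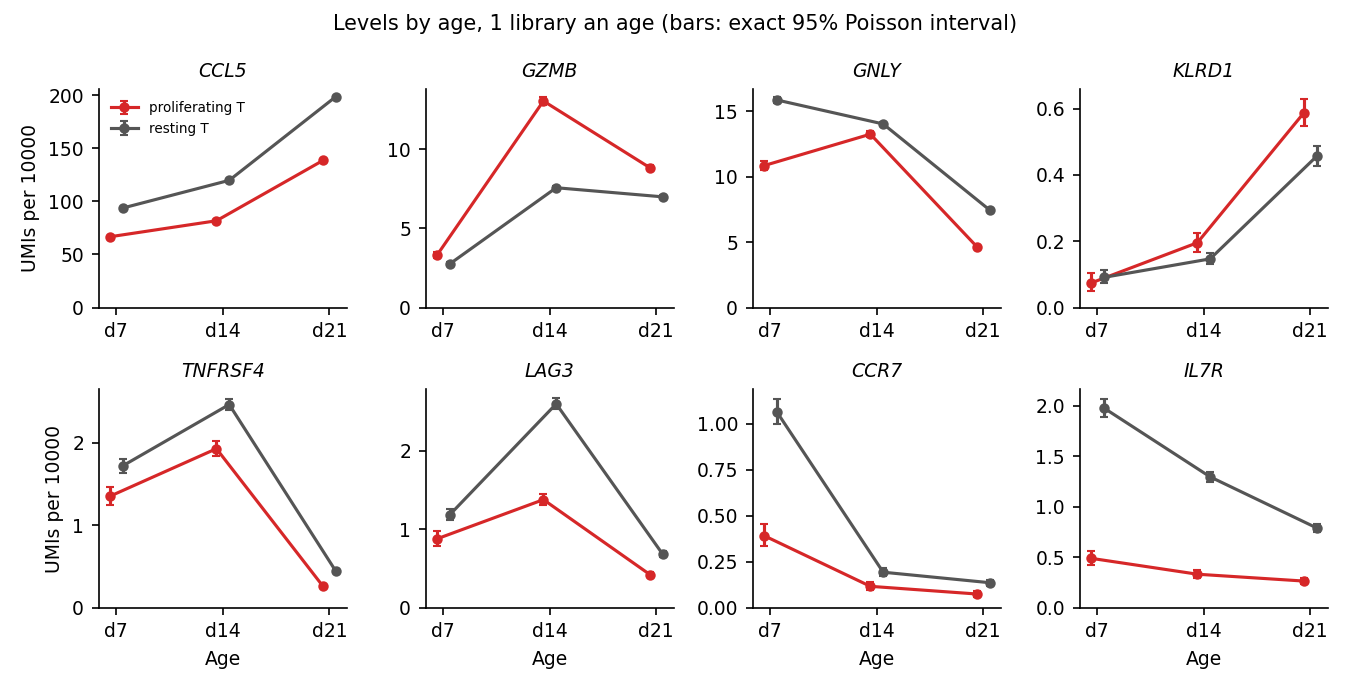
Levels in UMIs per 10000 of 8 genes in proliferating (red) and resting (grey) T cells at d7, d14 and d21, with 1 library an age and exact 95% Poisson intervals as bars. CCL5 and KLRD1 climb and CCR7 and IL7R go down in both populations, and GZMB peaks at d14 with proliferating above resting cells.

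The 5 largest falls and rises between d7 and d21 were mostly genes of other cells. HBB fell from 15.7 to 0.0379 UMIs per 10000 (415-fold) in proliferating and from 32.4 to 1.17 in resting T cells. S100A9 and S100A8, of neutrophils, fell 67.2-fold and 21.9-fold, with 243 of 300 S100A9 and 55 of 70 S100A8 UMIs of d7 in 1 cell, and FABP1, of absorptive epithelium, fell 14.4-fold. CCL1, a chemokine of activated T cells, stood at 0.259, 0.887 and 0.00683, and at d14 its 881 UMIs came from 20 of 887 cells, 497 of them from 1 cell. The rises, ranked with d7 counts under 3 UMIs set to 3, were led by JCHAIN, the joining chain of secreted immunoglobulins, with a log2 ratio of 8.22 (counting interval 6.67 to 10.5). LOC100152327 followed with 6.39 (6.03 to 6.76), from 0.152 to 12.7 UMIs per 10000, with 12325 of its 16776 UMIs of d21 in 1 cell. The smooth muscle genes TAGLN, ACTA2 and MYLK gave 6.22 (4.36 to 9.27), 5.27 (4.14 to 6.72) and 6.11 (3.61 to 11.4), from 2, 6 and 1 UMIs at d7. In resting T cells these 5 genes were higher at d21 as well, with log2 ratios of 8.30, 6.98, 3.48, 5.22 and 4.24. The summed level of the plasma cell list moved likewise, from 0.48 to 3.78 and 3.00 UMIs per 10000 in proliferating and from 0.46 to 5.93 and 5.41 in resting T cells, and the part of free RNA in these values was not tested.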

How the data were processed

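UMI counts of 5 droplet libraries were used. Per the labels and the study's methods, the authors prepared 10x Genomics 3′ libraries (named as version 3 in the labels and version 2 in the methods), aligned reads to Sscrofa11.1 with Cell Ranger 3.1.0 and STAR, and deposited the counts per gene and barcode without normalization, 1 matrix per age; their later filter and merging are not part of the matrices. The members and the gene lists were chosen with earlier results of these data known. Counts were summed per library and population, with the 7 genes of the rule left out, and tested with edgeR 4.0.16 (R 4.3.3; TMM, filterByExpr, quasi-likelihood, library as block, Benjamini-Hochberg at 0.05), which left 2 residual degrees of freedom against resting T cells and 1 against B cells. The library is the replicate. P-values measure how the ratio of the 2 populations within a library varies over libraries of different ages, each of mixed piglets. The fit also shares the spread across genes, with prior degrees of freedom of 10.8 against resting T cells and 15.3 against B cells. On simulated data of the T cell comparison 88 of 100 genes with 2-fold and 99 of 100 with 4-fold changes were called, with 4 false calls. The simulation gave every gene the same spread and the libraries no difference, so it does not give the error rate in the real counts. DESeq2 1.42.0, other scalings, filters, thresholds, UMI ranges, pairings and left-out libraries were tried as alternatives. Levels are summed UMIs per 10000 of the same cells. Intervals are 95% exact (Poisson or Clopper-Pearson) and cover counting error only. Those on summed UMIs treat each UMI as independent, although UMIs of a gene can lie in few cells. No doublet caller was run; cells of highest UMI total were left out as an alternative. Beyond the lists, the text names the 10 largest rises and falls called with 1 direction in all 3 libraries and the 5 largest rises and falls from d7 to d21, with d7 counts under 3 set to 3 for the rises, a choice made after seeing the values. Python 3.11.15, NumPy 2.4.6, SciPy 1.17.1 and pandas 2.3.3 were used. A search of promoters for motifs was planned and not run, as no sequence was used here.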

Additional observations from a re-analysis of the deposited data

Results flagged for a closer look

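Among 161 list genes outside the cycle, 9 had a ratio of proliferating over resting T cells that lay above 0 in at least 1 library and below 0 in another, each beyond its counting interval. The difference between libraries was not tested, and none of the 9 was called over the 3 libraries. The highest minus the lowest log2 ratio was 0.912 for EOMES, a transcription factor of killer cells (0.57 at d14, -0.25 at d7 and -0.34 at d21). It was 0.684 for TNFRSF9 and 0.570 for CXCR3, both highest at d7. It was 0.461 for CD5, 0.436 for ODC1, 0.407 for BATF and 0.406 for ITGAE. For KLRK1 and COX6C it was 0.190 and 0.139.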

How the results depend on the processing

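Against 2809 genes higher and 3127 lower in proliferating than in resting T cells, DESeq2 called 2047 and 1827, cells without UMIs of other lineages 1945 and 1703, 1 to 1 pairing on the UMI total 1447 and 1906, that pairing among cells without UMIs of other lineages 867 and 696 (of 8326 genes), and the fit without the library block 1242 and 247. Both pairings were chosen after seeing the data. Leaving out 1 library gave 2140 to 2793 higher and 1861 to 2622 lower genes, with 1897 lower without d14 and 1861 without d21. Against B cells (448 higher, 403 lower) DESeq2 called 202 and 213 and the fit without block 38 and 13, and without TMM factors the median of all genes moved by 0.16. Leaving out a library there would leave no residual degrees of freedom and was not run.

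The proliferating share of T cells at d7, d14 and d21 became 12, 12.5 and 14.5% with at least 4 UMIs of MKI67 and TOP2A, 13.3, 13.5 and 17.5% without the 5% of T cells of highest UMI total, and 4.39, 4.36 and 5.61% at 1000 UMIs, where d1 had 0% (0 to 4.02%). At 4000 UMIs the median G2 and mitosis share was 76.9, 75.5 and 77.3%.

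Of 58 genes named for proliferating against resting T cells, 9 changed sign under some alternative, and the cause was not tested. Beside the values given above for pairing without other lineages (GAPDH -0.0837, NME1 -0.39, NPM1 -0.29, ENO1 -0.23, GZMH 0.63, KLRD1 -0.28, GNLY 0.17, PRF1 0.10), FOXP3 was at 0.0241 there. With pairing on UMI total alone, GZMH was at 0.48, GNLY at 0.16, PRF1 at 0.30, NME1 at -0.10, NPM1 at -0.0734 and ENO1 at -0.0608. Within the UMI range of proliferating cells, GZMH was at 0.10 and PRF1 at 0.0159. Without UMIs of other lineages, GZMH was at 0.034 and KLRD1 at -0.0499. The named genes against B cells kept their direction. Of 56 called named genes, 32 lost the call without the library block, among them GZMB, GZMA, CCL5, IL17A, IL17F, CCR7, LEF1, CD4 and TXNIP. Without it all 6 called against B cells were lost too. Pairing on UMI total alone lost 16 of 54 (LEF1, IL22, CD4, IL2RA, LAG3, IL10, GZMH, CCL5, GNLY, PRF1, GAPDH, NME1, NPM1, ENO1, CXCR6 and HBB). Pairing without other lineages lost 4 of 45 (KLRD1, GNLY, PRF1 and GAPDH) and called 4 in the opposite direction (GZMH, NME1, NPM1 and ENO1). The UMI range lost 7 (GZMH, GNLY, PRF1, NME1, NPM1, ENO1 and CXCR6). DESeq2 lost GZMH, KLRD1 and PRF1, and against B cells CDCA7, DUT and ENO1. Leaving out TMM factors lost DUT and ENO1 against B cells, and leaving out the filter on low counts DUT. Leaving out the cells of highest UMI total lost TYROBP, and leaving out cells with UMIs of other lineages GZMH, KLRD1, GNLY and PRF1. Without d14 IL2RA, KLRD1, PRF1 and CXCR6 were lost, without d21 GZMA (0.35), GZMH, KLRD1, GNLY and PRF1, and without d7 IL2RA (-0.25), GZMH and MYC (-0.19).

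Each age is 1 library of mixed piglets, so no spread between animals can be given. Resting T cells are those without a detected UMI of MKI67 and TOP2A whatever their depth. Low genes such as SHMT1 rest on few UMIs.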

Other observations

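JCHAIN, the joining chain of secreted immunoglobulins, was found in 1 of 428 proliferating T cells at d7, in 304 of 887 at d14 and in 538 of 1414 at d21. At d14 1211 of its 2413 UMIs came from 1 cell, and at d21 1432 of 2803.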
